A study of Homo sapiens with 6 samples.

Results

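The nuclear genes for subunits of the mitochondrial respiratory chain and ATP synthase were followed in S1a and S1b, cell populations isolated from the human line MDA-MB-231, and in the parental line itself. Genes were taken by their current symbol: NDUFA, NDUFB, NDUFC, NDUFS or NDUFV with a number for complex I, SDHA to SDHD for complex II, the UQCR genes and CYC1 for complex III, COX5A, COX5B and the COX6, COX7 and COX8 genes for complex IV, and the ATP5F1, ATP5MC, ATP5P and ATP5M genes for complex V. Assembly factors and COX4I1 were left out. This gave 64 genes with 95 probe sets, out of 11963 genes with 19064 probe sets on the array that could be named by 1 symbol. Complex I held 27 of the genes, complex II 3, complex III 7, complex IV 12 and complex V 15. Some other genes that fit the same symbols had no probe set named for them alone and were not tested or counted here, among them NDUFA11, NDUFA12, NDUFB9, NDUFB10, NDUFC2, NDUFS5, NDUFS8, NDUFV3, SDHB, UQCRFS1, UQCRH, UQCRHL, COX6B2, COX7B2, COX8C, ATP5MF, ATP5MGL and ATP5MK. For NDUFC2, NDUFS5, NDUFS8, UQCRH, UQCRHL and ATP5MF there were probe sets annotated to more than 1 gene.

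MDA-MB-231 is a triple-negative breast cancer line with mesenchymal features. The labels describe S1a and S1b as the first and second isolated population of seeder cells, a term used for tumour cells that travel in the blood and settle again in a tumour. S1a, S1b and the parental line were each measured on 2 arrays, all from cells kept subconfluent in DMEM with 10% FBS, and carried no other stated treatment or allele. The arrays of a population are called biological replicates without separate cultures being named, so a p-value reflects only how these arrays vary, and that variation may be technical. How the isolates were obtained is not given in the labels, and a control population isolated in the same way was not among the samples.

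The respiratory chain passes electrons from NADH (complex I) and succinate (complex II) through coenzyme Q, complex III and cytochrome c to oxygen at complex IV, and complex V uses the proton gradient that results to make ATP. Every complex except complex II also contains subunits encoded by mitochondrial DNA, for which no probe set was named here. Complex I has a matrix arm, which takes electrons from NADH, and a membrane arm, which pumps protons. Many core subunits, though not all, carry redox centres or catalytic sites, and accessory subunits, most of them small, surround the core. Fewer cells of a kind and less RNA per cell cannot be told apart in such bulk RNA.

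Signals are the deposited linear intensities in arbitrary units, and changes are differences of log2(signal + 3.942), fitted with limma and adjusted over all 7791 genes tested; a gene is called at an adjusted p under 0.05. Between arrays of the same population the log2 signals correlated across genes with r between 0.9778 and 0.9871, between S1b and S1a arrays with 0.9788 to 0.9805, and between isolate and parental arrays with 0.9197 to 0.9321. The line's own markers VIM, CD44, CAV1, MSN, AXL and LGALS1 were bright on all 6 arrays, with mean signals of 3693 for MSN up to 21320 for VIM; CAV1 (log2 change -0.30) and LGALS1 (-0.35) were called lower in the isolates than in the parental line, the other 4 were not called. PGR and CDH1 were dim, with means of 4.55 and 9.84, while EPCAM, listed as low, averaged 415. Markers of endothelium (CDH5, PECAM1 and VWF) averaged 5.47 to 38.7 over the 6 arrays, the leukocyte markers PTPRC and CD14 24 and 56.6, and the fibroblast markers PDGFRB, DCN and COL1A1 between 23.7 and 116. Some of them moved at these low levels. CD14 read 26.0 to 69.8 on the isolate arrays, against 70.5 and 103 in the parental line, and was called lower (log2 change -1.08, adjusted p = 0.0356). CDH5 read 23.8 to 57.8 on the isolate arrays, against 7.32 and 3.40 in the parental line, and was too dim to be tested. For GAPDH, the signal of the 3' probe set divided by that of the 5' one, a sign of RNA integrity, was 0.976 to 0.998 on the isolate arrays and 1.06 to 1.09 on the parental arrays. The same quotient for ACTB overlapped, with 1.34 to 1.46 on the isolate arrays and 1.28 and 1.55 on the parental arrays. The part of these markers and ratios in the results below was not tested.

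The first comparison asked which subunit genes set the isolates apart from the parental line. Of 62 subunit genes tested, 22 were higher and 9 lower in the mean of S1a and S1b than in the parental line, and 31 were not called. Calls thus covered 31 of 62, against 46.2% of all genes tested, which is near the background. By direction, 35.5% of the subunit genes were higher, against 22.7% of all genes, and 14.5% were lower, against 23.5% of all genes. Their median log2 change was 0.15, against -0.03 for all genes tested. This gap of 0.17 was smaller when the arrays were scaled differently: 0.076 with quantile normalization (0.11 against 0.04) and 0.11 with cyclic loess (0.12 against 0.02). It was 0.13 (0.15 against 0.02) when only probe sets above the 60th percentile of mean signal were kept. Of the 62 subunit genes 24 were then higher and 10 lower, against 1628 and 1453 of 5616 genes. Of the calls, 71.0% were higher, against 49.2% of the calls over all genes tested. With each array centred on its median the split became 35 higher and 4 lower (89.7% higher). Over all genes tested, 71.3% of the calls were then higher, and the median moved to 0.16. The changes were mostly small: 7 called genes differed by 1.5-fold or more, and NDUFB2 alone by 2-fold or more. The 2 genes left out as too dim were COX7A1 and COX6A2, isoforms of heart and skeletal muscle.

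**Figure D1:**
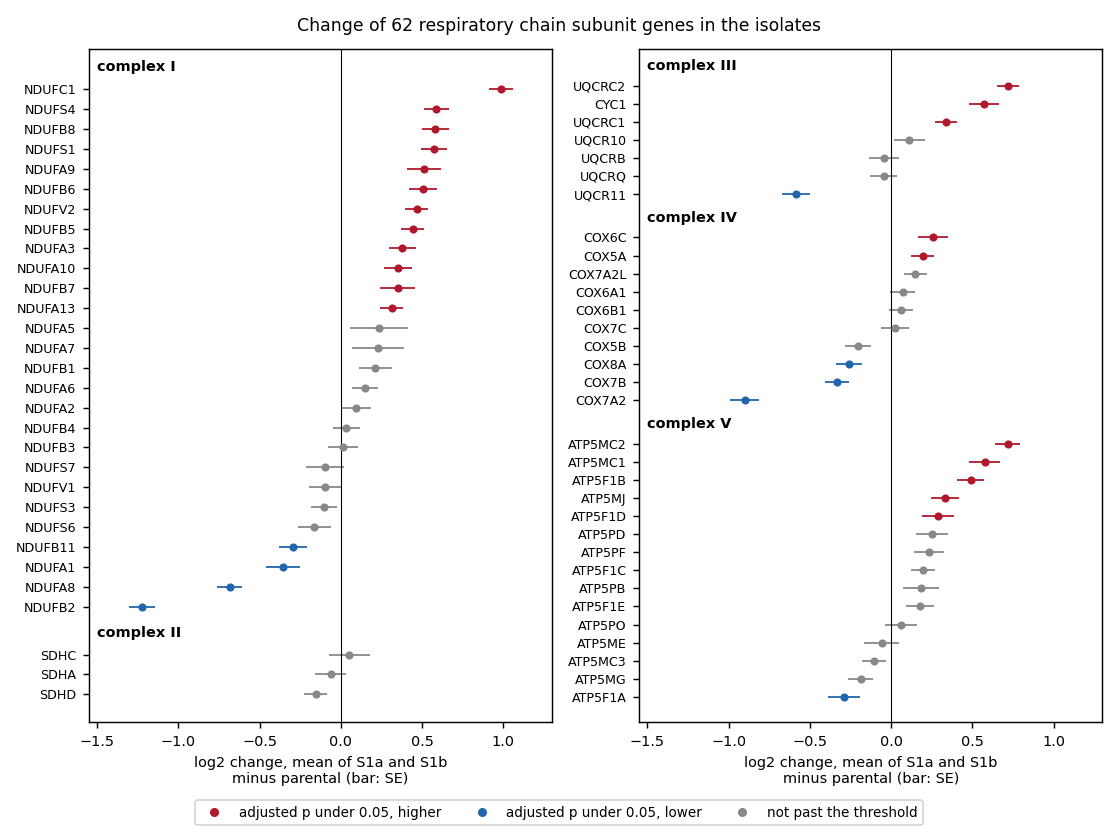
Log2 change of each of the 62 tested subunit genes in the mean of S1a and S1b (4 arrays) against the parental line (2 arrays), by complex; points are estimates and bars are SE. Red points were called higher (22 genes), blue points lower (9 genes) and grey points were not past the threshold; NDUFB2 at -1.22 and NDUFC1 at 0.99 are the extremes, and no gene of complex II was called by its brightest probe set.

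The measured core proteins of complex III, CYC1 and most called genes of complex I stood on the higher side. The falls, apart from that of ATP5F1A in the head of complex V, were among small accessory subunits. Small accessory subunits also rose, NDUFC1 the furthest of all members. The complex I core subunits NDUFV1, NDUFS3 and NDUFS7 were not called. In complex I, 12 genes were higher and 4 lower of 27, with a median of 0.23. Its matrix arm gave 4 higher and 0 lower of 12 (4 at an unadjusted p under 0.05), and its membrane arm 8 higher and 4 lower of 15. Complex III gave 3 higher and 1 lower of 7, complex IV 2 higher and 3 lower of 10, and complex V 5 higher and 1 lower of 15. In complex II, limma called 0 of 3 genes, and none of them reached an unadjusted p under 0.05 by its brightest probe set. Signals of the isolates and the parental line did not overlap for 36 of the 62 genes (25 above, 11 below), 58.1% against 56.7% of all genes tested, again near the background. Probe sets annotated to several genes were outside these counts. That of NDUFC2 read 4703 to 5178 on the isolate arrays, against 6630 and 6431 in the parental line. That of ATP5MF read 4199 to 4854, against 5618 and 6166. For NDUFS8 a probe set read 2549 to 3001, against 3038 and 3218. Its other probe set overlapped, as did those of NDUFS5 and of UQCRH with UQCRHL.

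Promoter sequences are shown for members that rose, fell or were not called, because the nuclear respiratory factor NRF1 is a known activator of many such genes and the members could be read for its motif. RefSeq promoters of build GRCh38.p14 were matched for 55 members, of which 54 were tested, and the 250 bases before the start were searched on both strands. The NRF1 letters GCGCNTGCG occurred in 17 of the 54 (31.5%), against 14.4% of 6504 tested genes and 7.09% of all 27305 promoters. Among the members, 5 of 17 higher genes, 1 of 9 lower genes and 11 of 28 uncalled genes held them (29.4%, 11.1% and 39.3%), counts too small to rank the groups. The ETS letters CCGGAAG, bound by the factor NRF2 (GABPA), were found in 14 of 54 members (25.9%), against 16.7% of tested genes and 8.82% of all promoters. For YY1 (AANATGGCG) the count was 1 of 54 (1.85%), against 2.51% and 1.40%, and for the oestrogen-related receptors (TCAAGGTCA) it was 0 of 54, against 0.108% and 0.319%. No match of one motif overlapped a match of another, and a match is a description of letters and not evidence of binding. The following bases, 5′ to 3′ on the gene's strand, end at the base before the start, and capitals mark the NRF1 letters on either strand. ATP5MC2 (chr12:53676084-53676203, minus strand), UQCRC1 (chr3:48609647-48609766, minus strand) and NDUFA9 (chr12:4648994-4649113, plus strand) rose and held 1 match each.
ATP5MC2: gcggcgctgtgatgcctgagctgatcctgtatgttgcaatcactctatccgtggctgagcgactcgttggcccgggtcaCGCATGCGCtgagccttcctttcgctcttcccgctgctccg
UQCRC1: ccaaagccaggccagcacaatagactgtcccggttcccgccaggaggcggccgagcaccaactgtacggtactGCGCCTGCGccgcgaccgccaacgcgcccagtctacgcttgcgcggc
NDUFA9: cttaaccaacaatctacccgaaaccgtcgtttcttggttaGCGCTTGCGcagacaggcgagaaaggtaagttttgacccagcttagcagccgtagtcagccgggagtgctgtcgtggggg
UQCR11 (chr19:1605463-1605582, minus strand) was the only one of the 9 lower genes with a match, and had 2.
UQCR11: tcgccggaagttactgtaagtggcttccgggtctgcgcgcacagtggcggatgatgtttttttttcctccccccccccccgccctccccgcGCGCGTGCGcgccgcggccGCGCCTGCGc
SDHA (chr5:218140-218319, plus strand), which was not called, had 4 matches, the most of any member searched.
SDHA: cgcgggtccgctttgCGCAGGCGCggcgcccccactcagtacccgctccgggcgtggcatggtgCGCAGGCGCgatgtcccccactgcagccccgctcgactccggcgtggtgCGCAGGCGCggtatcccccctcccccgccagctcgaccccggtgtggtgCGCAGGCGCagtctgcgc
The promoters of the genes that moved most, NDUFB2 (chr7:140696588-140696707, plus strand) and NDUFC1 (chr4:139302552-139302671, minus strand), held none of the 4 motifs in the window.
NDUFB2: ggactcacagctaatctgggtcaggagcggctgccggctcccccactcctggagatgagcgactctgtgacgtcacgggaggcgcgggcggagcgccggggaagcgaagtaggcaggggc
NDUFC1: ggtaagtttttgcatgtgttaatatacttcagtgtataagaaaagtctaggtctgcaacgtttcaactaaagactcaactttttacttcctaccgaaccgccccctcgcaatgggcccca

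In the membrane arm of complex I, NDUFB2 and NDUFC1, both small accessory subunits, moved furthest and in opposite directions. NDUFB2 had signals of 2038 and 2131 in S1a and 1894 and 1702 in S1b, against 4294 and 4757 in the parental line. It fell by 1.22 on the log2 scale (SE 0.0799, limma adjusted p = 2.47e-06), 2.33-fold lower in the isolates. All 4 isolate arrays lay far below both parental arrays, and its second probe set fell by 0.97 (adjusted p = 2.64e-05). NDUFC1 read 5349 and 5394 in S1a and 6030 and 5365 in S1b, against 2713 and 2871 in the parental line. This was a rise of 0.99 (SE 0.0758, adjusted p = 7.03e-06), or 1.98-fold, and every isolate array lay far above the parental ones. NDUFA8, an accessory subunit on the intermembrane side, gave 1852 and 1772 in S1a and 1587 and 1442 in S1b, against 2577 and 2754 in the parental line. It fell by 0.69 (SE 0.077, adjusted p = 7.41e-05), with S1b lowest and no overlap between isolates and parental.

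Further rises in the membrane arm were those of NDUFB8 (log2 change 0.58), NDUFB6 (0.51), NDUFB5 (0.44), NDUFA3 (0.38), NDUFA10 (0.35), NDUFB7 (0.35) and NDUFA13 (0.31), the last of them also known as GRIM-19. NDUFA1 and NDUFB11, both encoded on chromosome X, were lower, with changes of -0.36 and -0.30. NDUFB1, NDUFB4 and NDUFB3 were not called (0.21, 0.03 and 0.01). The calls of NDUFA1, NDUFB11 and NDUFB7 were lost when S1a replicate 1 was left out. The sign of NDUFB7 turned to -0.10 when its probe sets were averaged, the second of them being dim, and NDUFB8 lost its call in the same way (0.19).

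Genes of the matrix arm rose or were not called. NDUFS4, an accessory subunit whose loss causes Leigh syndrome, had signals of 3154 and 3122 in S1a and 3183 and 2813 in S1b, against 2105 and 1977 in the parental line. It rose by 0.59 (SE 0.0774, adjusted p = 0.000208), with all isolate arrays above the parental ones. The largest core subunit NDUFS1, which carries iron-sulphur clusters, rose by 0.57, the core iron-sulphur subunit NDUFV2 by 0.47 and NDUFA9, an accessory subunit near the quinone site, by 0.51. NDUFV1, which binds NADH and the flavin, was not called (-0.10, adjusted p = 0.435), nor were the core subunits NDUFS3 (-0.10) and NDUFS7 (-0.10). Accessory subunits without a call were NDUFA5, NDUFA7, NDUFA6, NDUFA2 and NDUFS6, with changes of 0.23, 0.23, 0.15, 0.09 and -0.16. Parental signals of NDUFA5 were 1594 and 1101 and those of NDUFA7 977 and 601, so the parental arrays themselves differed widely for these genes.

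NDUFAB1 and COXFA4 fall outside the wording of the symbols but belong beside these. NDUFAB1, the mitochondrial acyl carrier protein and a subunit of complex I, read 8076 and 7757 in S1a and 8085 and 7667 in S1b, against 5739 and 6849 in the parental line, a rise of 0.33 (SE 0.0862, adjusted p = 0.0101). COXFA4, formerly NDUFA4 and now placed with complex IV, read 4034 and 3933 in S1a and 4586 and 4154 in S1b, against 4308 and 4312, with a change of -0.05 (adjusted p = 0.615). Isolate and parental signals overlapped for COXFA4 and not for NDUFAB1. The hypoxia-related isoform COXFA4L2 lay below the filter on every array, between 8.04 and 37.1.

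Complex II oxidises succinate and belongs to the citric acid cycle as well. Its flavoprotein SDHA read 2197 and 2266 in S1a and 2429 and 2226 in S1b, against 2142 and 2644 in the parental line (log2 change -0.06, SE 0.0933, adjusted p = 0.605). The membrane anchor SDHC had 1107 and 1279 in S1a and 1066 and 915 in S1b, against 905 and 1207 (0.05, SE 0.125, adjusted p = 0.751). Isolate and parental signals overlapped for both genes. The other anchor, SDHD, read 3710 and 3639 in S1a and 3729 and 3716 in S1b, against 4347 and 3906 (-0.16, SE 0.073, adjusted p = 0.106); its isolate arrays all lay just below the parental ones without a call. The probe sets of SDHC differed: the other 3 gave 0.25, 0.34 and 0.26 in the mean of S1a and S1b (adjusted p = 0.0599, 0.0745 and 0.0512), and 2 of them were called higher in S1a (0.38 and 0.46). Without parental replicate 2, SDHC was called higher (0.37, adjusted p = 0.0147) and SDHD lower (-0.23, adjusted p = 0.0327), and SDHD was also called lower with quantile normalization (-0.20, adjusted p = 0.0336).

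In complex III the measured core proteins, UQCRC1 and UQCRC2, and the redox subunit CYC1 all rose. UQCRC2, a core protein, had signals of 2988 and 3073 in S1a and 3166 and 3100 in S1b, against 1837 and 1909 in the parental line. It rose by 0.72 (SE 0.0687, adjusted p = 2.69e-05), 1.64-fold, and its other probe set rose by 0.79. CYC1, cytochrome c1, which hands electrons to cytochrome c, read 5453 and 5763 in S1a and 6041 and 6130 in S1b, against 4370 and 3524 in the parental line (0.57, SE 0.0912, adjusted p = 0.000645). For the core protein UQCRC1 the signals were 2747 and 2803 in S1a and 2909 and 2770 in S1b, against 2221 and 2214 (0.34, SE 0.0688, adjusted p = 0.00272). Every isolate array exceeded both parental arrays for these 3 genes. Among the small subunits UQCR11 went the other way, with 2924 and 3302 in S1a and 2938 and 2635 in S1b, against 4624 and 4205. It fell by 0.58 (SE 0.0848, adjusted p = 0.000363) and did not overlap with the parental line. UQCR10, UQCRB and UQCRQ were not called (0.11, -0.04 and -0.05).

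**Figure D2:**
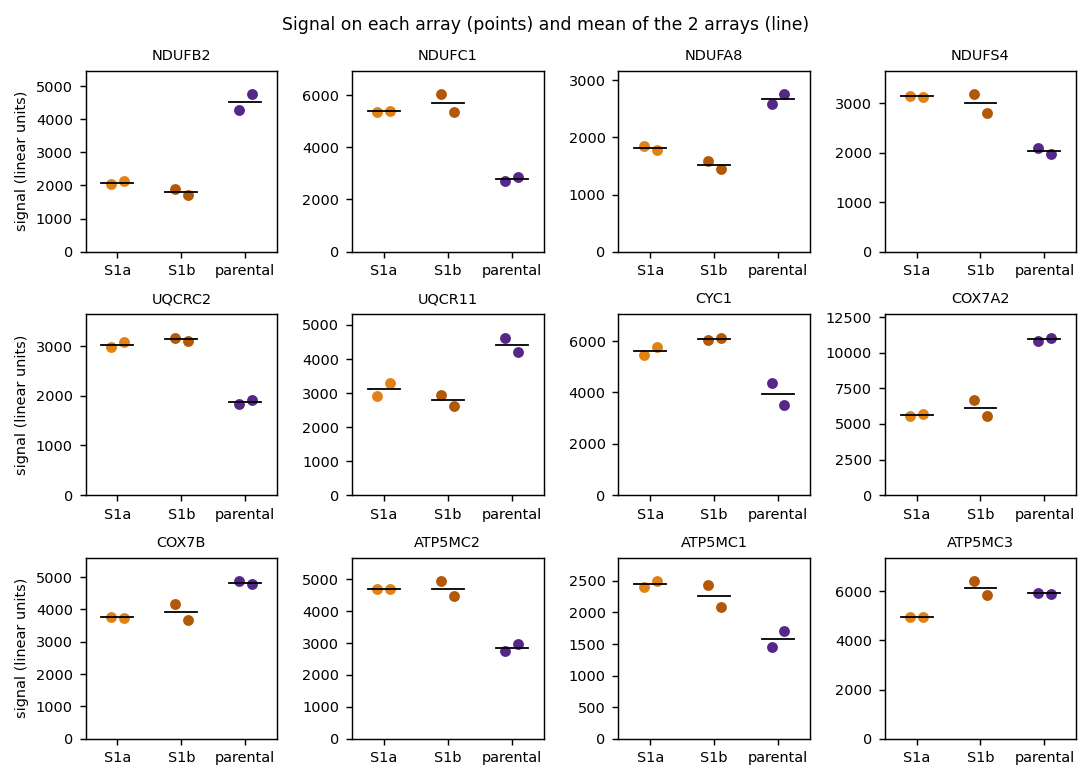
Signal (linear units, axis from 0) of 12 subunit genes on each array, with S1a, S1b and parental from left to right in each panel; points are arrays and lines the mean of the 2 arrays. NDUFC1, NDUFS4, UQCRC2, CYC1, ATP5MC2 and ATP5MC1 lay higher on all 4 isolate arrays than on both parental arrays, NDUFB2, NDUFA8, UQCR11, COX7A2 and COX7B lower, and ATP5MC3 was lowest in S1a.

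Complex IV, where oxygen is reduced, was the complex with more falls than rises in the mean of S1a and S1b, by 3 to 2. In S1a it had 4 falls and 0 rises, and in S1b 2 falls and 2 rises. COX7A2, the widely expressed form of subunit 7A, had signals of 5572 and 5702 in S1a and 6700 and 5528 in S1b, against 10850 and 11050 in the parental line. It fell by 0.90 (SE 0.0871, adjusted p = 2.82e-05), 1.87-fold lower in the isolates, with no isolate array near the parental ones. The muscle isoform COX7A1 was dim throughout, with 2.44 to 6.94 units on the isolate arrays and 3.64 to 5.61 on the parental arrays. COX7A2L, a related protein that joins complexes III and IV in supercomplexes, read 2893 and 2730 in S1a and 2850 and 2818 in S1b, against 2564 and 2526 (0.15, SE 0.0691, adjusted p = 0.103). Its arrays did not overlap, although it was not called.

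COX7B, a small subunit encoded on chromosome X, had 3769 and 3736 in S1a and 4161 and 3685 in S1b, against 4868 and 4785 in the parental line, and fell by 0.33 (SE 0.0748, adjusted p = 0.00492). COX8A, the ubiquitous form of subunit 8, read 7705 and 7889 in S1a and 8716 and 7593 in S1b, against 9321 and 9767, and fell by 0.26 (SE 0.0803, adjusted p = 0.0231). Both were below the parental arrays on every isolate array. The rises in this complex were small: COX5A, a subunit on the matrix side, gave 7042 and 6950 in S1a and 7453 and 7114 in S1b, against 6155 and 6320 (0.19, SE 0.0695, adjusted p = 0.0425). COX6C rose by 0.26 (adjusted p = 0.0462). Calls of COX8A, COX5A and COX6C did not survive several of the alternatives, among them leaving out S1a replicate 1, and centring on the median ended the calls of COX7B (-0.14) and COX8A (-0.07).

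Other subunits of complex IV were not called. COX5B, the zinc-binding subunit, read 3680 and 3717 in S1a and 4432 and 3822 in S1b, against 4400 and 4605 in the parental line (-0.21, SE 0.0793, adjusted p = 0.0561). COX7C, bright on all arrays, had 10250 and 10900 in S1a and 13460 and 11510 in S1b, against 10940 and 11660 (0.02, adjusted p = 0.848). For COX7C the probe sets disagreed in call, since its other probe sets rose by 0.49 and 0.68. COX6A1, the general form of subunit 6A, read 9518 and 9918 in S1a and 11160 and 10130 in S1b, against 9584 and 9770 (0.07, adjusted p = 0.473). Its muscle counterpart COX6A2 stayed between 8.21 and 48.5 on the isolate arrays, against 44.9 and 83.9 in the parental line. COX6B1, on the intermembrane side, gave 5407 and 5583 in S1a and 5586 and 5131 in S1b, against 5372 and 5044 (0.06, adjusted p = 0.537). Isolate and parental signals overlapped for COX5B, COX7C, COX6A1 and COX6B1.

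In complex V the 3 genes for the c subunit of the rotating ring, which encode the same mature protein, differed: ATP5MC2 and ATP5MC1 rose and ATP5MC3 was not called. ATP5MC2 had signals of 4711 and 4707 in S1a and 4938 and 4463 in S1b, against 2765 and 2958 in the parental line, and rose by 0.72 (SE 0.0746, adjusted p = 4.8e-05), 1.64-fold. ATP5MC1 read 2397 and 2493 in S1a and 2437 and 2084 in S1b, against 1447 and 1711, and rose by 0.58 (SE 0.0942, adjusted p = 0.000764). No isolate array of either gene reached down to the parental signals. ATP5MC3 gave 4970 and 4963 in S1a and 6402 and 5827 in S1b, against 5946 and 5903 in the parental line, and was not called in the mean of both isolates (-0.11, SE 0.0721, adjusted p = 0.258). Its S1a arrays were the low ones, while the S1b arrays lay on either side of the parental signals; its other probe set was called lower (-0.22, adjusted p = 0.0268).

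The F1 head, which makes ATP, held both directions. Its catalytic beta subunit ATP5F1B read 7756 and 7723 in S1a and 8264 and 8266 in S1b, against 5223 and 6211 in the parental line, and rose by 0.49 (SE 0.0835, adjusted p = 0.000993). The alpha subunit ATP5F1A, with which it alternates in the head, read 10530 and 11000 in S1a and 11990 and 10940 in S1b, against 12160 and 15190, and fell by 0.29 (SE 0.0987, adjusted p = 0.0343). ATP5F1A lay below both parental arrays on each isolate array, but the parental arrays differed, and without parental replicate 2 its change was -0.13 and not called. ATP5F1D, the delta subunit of the central stalk, rose by 0.29 (adjusted p = 0.0349), but its other probe set did not (-0.07). The gamma subunit ATP5F1C was not called (0.20, adjusted p = 0.053). ATP5F1E, the epsilon subunit and among the brightest members, had 11340 and 12440 in S1a and 14670 and 12650 in S1b, against 11560 and 10950 (0.18, adjusted p = 0.125).

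None of the 4 genes of the peripheral stalk, which holds the head still, was called by limma in the mean of S1a and S1b, although 2 had an unadjusted p under 0.05. ATP5PF read 4178 and 4407 in S1a and 5254 and 4870 in S1b, against 4386 and 3581 in the parental line (0.23, SE 0.0911, adjusted p = 0.0593). ATP5PD, ATP5PB and ATP5PO changed by 0.25, 0.18 and 0.06 without a call. Of the remaining membrane subunits, ATP5MJ had 6668 and 7058 in S1a and 8140 and 6767 in S1b, against 5660 and 5663, and rose by 0.33 (SE 0.0865, adjusted p = 0.0101); its other probe set gave 0.18 and was not called (adjusted p = 0.117), and the call was also lost without the variance trend. ATP5MG, another of the brightest members, read 11060 and 11030 in S1a and 11850 and 10820 in S1b, against 12310 and 13160 (-0.19, SE 0.0777, adjusted p = 0.0734). ATP5ME was not called (-0.06). By its brightest probe set the signals of ATP5MG fell apart into lower isolate and higher parental values, whereas those of ATP5PF overlapped. The other probe sets of ATP5MG overlapped and were not called, with changes of -0.17, -0.24 and 0.14.

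S1a and S1b were also each set against the parental line. These comparisons share the parental arrays, so their values are given side by side. In S1a, 17 subunit genes were higher and 10 lower (median 0.12), against a background of 39.2% called, 19.4% higher and 19.9% lower among all genes. In S1b, 22 were higher and 7 lower (median 0.16), against a background of 41.6% called, 20.7% higher and 20.9% lower. The change of NDUFB2 was -1.33 in S1b and -1.12 in S1a, that of NDUFC1 1.03 in S1b and 0.94 in S1a, and that of COX7A2 -0.85 in S1b and -0.96 in S1a. COX5B, COX8A, ATP5F1A and ATP5MC3 were called lower in S1a (-0.28, -0.29, -0.34 and -0.25) and not in S1b (-0.13, -0.23, -0.25 and 0.04). COX5A, COX6C, ATP5MJ, ATP5PF and NDUFB7 were called higher in S1b (0.22, 0.31, 0.39, 0.35 and 0.40) and not in S1a (0.17, 0.20, 0.28, 0.11 and 0.30). NDUFB11 was called lower in S1b (-0.33) and not in S1a (-0.26), and ATP5F1D was called in the mean of both isolates (0.29) but in neither on its own (0.27 in S1b, 0.30 in S1a). Leaving out single arrays moved these counts: the S1a falls came to 4 without S1a replicate 1 and 5 without S1a replicate 2, the S1b rises to 13 without S1b replicate 1, and the S1b falls to 4 without S1b replicate 2. With any of these arrays left out, fewer genes were called over all genes tested as well. Without S1a replicate 1, the median of the members in the mean of both isolates was 0.11.

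The direct comparison of S1b with S1a asked whether those differences held between the isolates themselves. limma called 0 of the 62 subunit genes, against 1.89% of all genes tested, with 0.462% higher and 1.42% lower in S1b. An unadjusted limma p under 0.05 was reached by 5 of the 62, a smaller share than the 1162 of all 7791 genes tested. Both counts moved with single arrays: the 147 calls over all genes became 22 without S1b replicate 2 and 348 without parental replicate 2, and the 5 members became 1 without S1a replicate 1 and 9 without parental replicate 2. By their brightest probe sets, the log2 differences of the 62 genes ran from -0.27 for SDHC to 0.30 for ATP5MC3, with a median of 0.03. The 95% intervals of the single genes reached at most from -0.59 to 0.48, so differences within that range are not shown to be absent. ATP5MC3 came closest, with a difference of 0.30 (adjusted p = 0.119), and was called when either parental array was left out (adjusted p = 0.0461 and 0.0448); with an isolate array left out the adjusted p lay between 0.209 and 0.501. NDUFA8 (-0.26), COX7C (0.24), NDUFB2 (-0.21) and ATP5PF (0.24) were the others with an unadjusted p under 0.05. Other probe sets did not all follow: those of COX7C gave -0.29 and 0.12, and that of NDUFB2 gave 0.13. The other probe set of ATP5MC3 gave 0.17. Those of SDHC gave -0.40, -0.25 and 0.07, the first with a limma adjusted p of 0.135. Dimmer probe sets of ATP5F1C and ATP5PO gave -0.57 and -0.44. S1b replicate 1 was the array with the highest median of the members, 12.03 on the log2 scale, against 11.88 for S1b replicate 2, 11.87 and 11.86 for S1a, and 11.80 and 11.79 for the parental line.

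Some members share what the symbols did not use. Most were bright, since 53 of the 62 lay above the 80th percentile of the signals of all tested genes. All 9 genes that fell stood among neighbours that were low as well: the median log2 change of the 5 tested genes on each side was below 0 for all 9, from -0.61 at ATP5F1A to -0.23 at COX8A. Over all genes called lower the share with such neighbours was 71.3%. Of the 22 genes that rose, 14 (63.6%) had a neighbour median above 0, against 69.7% of all genes called higher. The 3 members encoded on chromosome X, NDUFA1, NDUFB11 and COX7B, were all lower, though none of them kept its call with each array centred on its median. Of the 267 tested genes of that chromosome, 169 (63.3%) were lower, with a median of -0.54. NDUFB2 on chromosome 7, NDUFA8 on chromosome 9 and COX7A2 on chromosome 6 lay on chromosomes whose tested genes had medians of -0.31, -0.26 and -0.21. For the remaining falls, COX8A on chromosome 11, ATP5F1A on 18 and UQCR11 on 19, these medians were -0.15, -0.04 and 0.02. Rises also occurred on chromosomes with low medians, as for NDUFB6 on chromosome 9 and NDUFC1 on chromosome 4 (-0.16). The part of position in these falls was not tested.

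**Figure D3:**
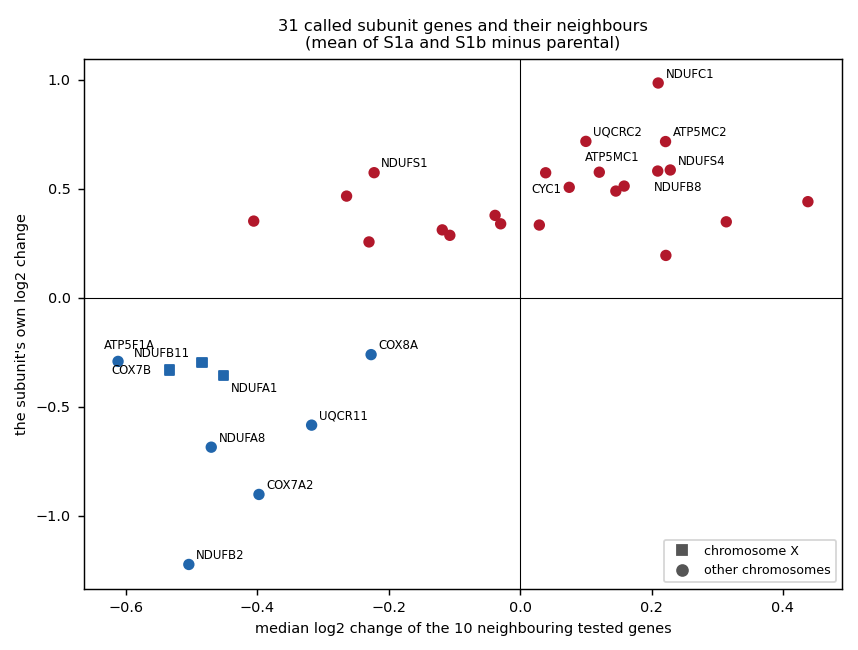
Log2 change of each of the 31 called subunit genes (vertical axis) against the median log2 change of the 10 nearest tested genes, 5 on each side (horizontal axis), in the mean of S1a and S1b against the parental line. All 9 lower genes (blue) lie left of 0, with the 3 genes of chromosome X as squares, while the 22 higher genes (red) lie on both sides, 14 of them right of 0.

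Other genes of mitochondrial energy metabolism were counted in the same comparison of the mean of S1a and S1b with the parental line. Of 50 mitochondrial ribosomal protein genes, which serve the translation of the mitochondrially encoded subunits, 22 were higher and 3 lower (median 0.19), among them MRPS28 (0.98), MRPL40 (0.71) and MRPL39 (0.63). Of 28 assembly factors of the complexes, 13 were higher and 3 lower (median 0.32). COX11, which delivers copper to complex IV, was 0.74 higher, CMC2, needed for complex IV, 0.75 higher, and TMEM126B, a complex I assembly factor, had a change of -0.73. Among 16 regulators of mitochondrial gene expression, 6 were higher and 1 lower (median 0.18), including the mitochondrial RNA polymerase POLRMT (0.71) and its partners TFB2M (0.56) and TFAM (0.45). These lists, like the subunit genes, had more rises than falls, each against the background of 22.7% higher and 23.5% lower.

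The remaining lists were more evenly split. Pyruvate dehydrogenase and the citric acid cycle gave 6 higher and 4 lower of 15 (median 0.16), with SUCLG1, a subunit of succinate-CoA ligase, at 0.88, PDHX at 0.56 and PDHA1, the X-linked alpha subunit of pyruvate dehydrogenase, at -0.64. Electron carriers and coenzyme Q synthesis gave 4 higher and 3 lower of 14 (median 0.21), with PDSS1, which makes the side chain of coenzyme Q, at 0.81, ETFA at 0.60 and COQ4 at -0.53. Import and chaperone genes gave 5 higher and 4 lower of 24 (median 0.06), with TIMM9, TOMM34 and TOMM40 at 0.73, 0.47 and 0.47. Carriers, porins and ATP synthase regulators gave 1 higher and 2 lower of 10 (median 0.11), namely the oxoglutarate carrier SLC25A11 at 0.63, the ADP/ATP carrier SLC25A5 at -0.48 and the dicarboxylate carrier SLC25A10 at -0.47.

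**Figure D4:**
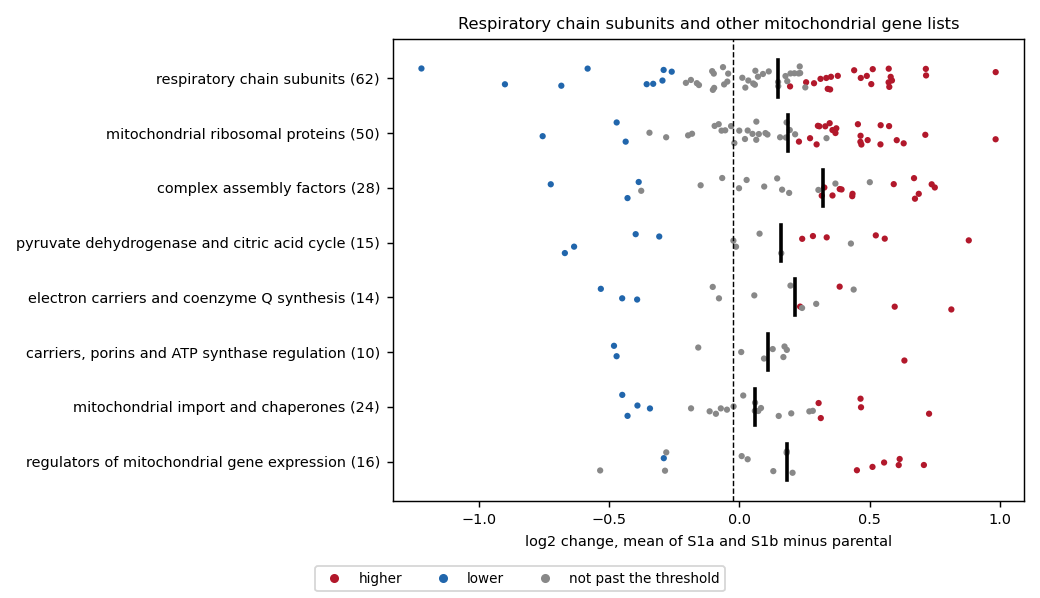
Log2 change of each tested gene of the subunit set and of 7 other mitochondrial lists (number tested in brackets) in the mean of S1a and S1b against the parental line; the thick bar is the list's median and the dashed line the median of all genes tested, -0.03. All 8 medians lie right of the dashed line, from 0.06 for import and chaperones to 0.32 for assembly factors.

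Where a gene had several probe sets, the brightest stood for it above. Of 31 other probe sets, 26 were tested and 19 had the same sign as the gene. For called genes the other probe sets had the same sign in 4 of 6 cases, and the exceptions were a dim probe set of NDUFB8 (-0.38, adjusted p = 0.243) and that of ATP5F1D. Other probe sets were called for genes that were themselves uncalled in 5 cases: NDUFA6 (0.49), UQCRB (0.39), COX7C (0.49 and 0.68) and ATP5MC3 (-0.22). Counted by probe set, 28 of 88 tested were higher and 11 lower, against 2379 higher and 2677 lower of all 11860 named probe sets tested. In either direction, 42.6% of all these probe sets were called.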

How the data were processed

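Total RNA from S1a, S1b and parental MDA-MB-231 cells, 2 arrays each, was labelled with biotin and hybridised to Affymetrix arrays. The deposited intensity values, 1 linear signal per probe set and array, come from MAS5, whose version is not given in the sources used here, per the submitters' processing notes. Each array had a trimmed mean of 500.2, with medians of 86.6 to 106. No scanner file or detection call was used. Arrays have no read depth, and their number limits the precision.

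Of 22277 probe sets, 19064 had 1 gene symbol, 1043 had several, 2108 had none and 62 were controls; symbols were updated through RefSeq gene identifiers (GRCh38.p14, 19052 matched). A gene was given the value of its brightest probe set. Values were taken as log2(signal + 3.942), the pseudocount being the 10th percentile of signals, which understates changes of dim genes. Probe sets with a mean below the 40th percentile (44.0) were left out. Group means over all 6 arrays were fitted with limma 3.58.1 in R 4.3.3 (moderated variances with a trend, 7 prior and 3 residual degrees of freedom), with Benjamini-Hochberg adjustment over 7791 genes within each contrast. The procedure was tested on simulated data. Alternatives changed the pseudocount, filter, normalization, probe set choice, variance model, replicate block and arrays used.

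The members, lists, tests and motifs were chosen with earlier results of these data known, so no list has a test of its own. Every member is accounted for. Signals by array, or their range where dim, are given for the 4 members of each complex with the smallest p against the parental line, the 2 with the smallest p between S1b and S1a, the tissue isoforms, complex II and the 3 brightest, and log2 changes for up to 3 genes of each other list with the smallest p. The labels state no pairing of arrays by replicate number, and the main fit used none. Deviations from the group means correlated over all genes tested with r = -0.005 for S1a and parental, -0.067 for S1b and parental and -0.058 for S1b and S1a. Over the members the values were 0.313, -0.201 and -0.363, so not every pair was above 0. Such correlations cannot show whether the arrays were paired.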

Additional observations from a re-analysis of the deposited data

How the results depend on the processing

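Of the 31 called subunit genes, 20 (16 higher, 4 lower) kept their call under every alternative in which they were tested, and only NDUFB7 changed sign, with the mean of its probe sets. Centring each array on its median gave 35 higher and 4 lower in the mean of S1a and S1b against parental, with a median log2 change of 0.34. In S1a it gave 29 and 4 with 0.31, and in S1b 4 lower with 0.35. Over all genes tested, centring also raised the share of calls that were higher. That share went from 49.2% to 71.3% in the mean of both isolates, 49.4% to 72.9% in S1a and 49.8% to 71.15% in S1b. Without the variance trend, 5 were lower in the mean of both isolates, 4 lower in S1a, and 13 higher and 4 lower in S1b. Without probe sets whose suffix marks shared probes, which left 38 members, 5 were lower in the mean of both isolates and 6 in S1a; with no filter on dim genes, 5 were lower in S1a. The replicate block left 5 lower in S1a, with 19 higher and 8 lower in the mean of both isolates, with 17 higher in S1a and 20 higher and 6 lower in S1b. For S1b against S1a the calls over all genes were 147; they came to 64 with the block, 320 with array weights, 60 with the mean of probe sets, 63 with no filter, 58 without shared-probe suffixes, 4 without the variance trend and 22 to 348 with an array left out. Members at an unadjusted p under 0.05, 5 in that comparison, numbered 2 with the block and 1 to 9 with an array left out. The causes of these shifts were not tested. Leaving out each array in turn gave 19 to 25 higher and 5 to 10 lower (median 0.088 to 0.16) in the mean of both isolates, 14 to 22 higher and 4 to 10 lower (median 0.056 to 0.14) in S1a, and 13 to 22 higher and 4 to 9 lower (median 0.11 to 0.22) in S1b. S1b against S1a then gave 0 to 1 higher and 0 lower by limma (median -0.026 to 0.093). Over all genes tested, calls against the parental line were also fewer with any array left out. Calls of COX5A, COX6C, ATP5F1A and ATP5F1D rested on the chosen settings, each being lost in 9 alternatives. Of the 31 uncalled members, 20 were called in some alternative. With 2 arrays per population a change must be large or very even to be called, and detection above background could not be judged.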
